A study of Homo sapiens with 15 samples.

Results

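The transcriptome of cells carrying NICD3, the intracellular domain of the NOTCH3 receptor, was set against that of cells carrying an empty vector (EV). The comparison rests on 6 of the 15 RNA-seq libraries of the series, 3 of the NICD3 group and 3 of the EV group, chosen by their titles and by the table's column names. All libraries are labelled as HCT116, a human colorectal carcinoma line, while the column names carry the name of another line, U373, a glioma line. The EV group is described as an isogenic empty vector control. Each NICD group is described as expressing 1 of 4 intracellular domains (NICD1 to NICD4) after induction with doxycycline, and 1 NICD3 library has a genotype label spelled NICD23 with a title and column name of NICD3. The first NICD4 library is NICD4 by its title and column name and NICD3 by its source and genotype labels, and was kept as NICD4. The labels used here do not say whether the EV cells also received doxycycline, at what dose or for how long it was given, whether the replicates are separate cultures, or whether a line is 1 clone. A difference between NICD3 and EV that the other NICD groups share therefore cannot be told apart from a property of the EV cells or of the induction, and the tests weigh it only against the scatter of the 3 libraries of a group. The table lists 31352 Ensembl identifiers, of which 15122 had enough reads to be tested.

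NOTCH receptors are cut on ligand binding, and the freed intracellular domain enters the nucleus, joins the DNA-binding protein RBPJ and the coactivator MAML, and turns on target genes such as HES1. Expressing the intracellular domain alone bypasses ligand and cleavage. In the intestine, NOTCH signalling keeps progenitors cycling and holds cells back from the secretory fate. NOTCH3 has a shorter transactivation region than NOTCH1 and is best known from vascular smooth muscle. What follows describes the genes beyond the NOTCH pathway and the keratins.

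The labels were checked first, and NOTCH3 itself did not set the NICD3 libraries apart. It was read at 9.7, 11.5 and 10.6 CPM (counts per library scaled to a common size) in the 3 EV libraries and at 11.5, 12 and 11.8 CPM in the 3 NICD3 libraries, a log2 change of 0.16 ± 0.11 (SE) that did not pass the limma test (adjusted p = 0.22). Its mean was 12.6, 12 and 13.8 CPM in NICD1, NICD2 and NICD4. NOTCH1, NOTCH2 and NOTCH4 averaged 23.1, 30.9 and 2.09 CPM in NICD3 and 30.8, 31.8 and 1.69 CPM in EV. The expressed domain is therefore not visible in the counts of its gene, and which domain a library carries rests on its label throughout. HES1, the repressor that NOTCH induces directly, was read at 20.3, 19.3 and 19.6 CPM in EV and 45.5, 51.7 and 49.9 CPM in NICD3, with no overlap.

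Libraries held 17867229 to 27704492 counted reads in NICD3 and 18246214 to 24484366 in EV. Between 19542 and 21553 identifiers had a read in NICD3, against 22730 to 24199 in EV. Of 20 colorectal epithelial markers 13 were tested and 12 were called higher, among them CDH1 (3.83 to 14.7 CPM), CLDN7 (37.3 to 152 CPM) and ELF3 (6.3 to 31.5 CPM). The 1 called lower was VIL1, with a log2 change of -1.81. The summed level of the list was 2220.2 to 2784 CPM in EV and 18934 to 23415 CPM in NICD3. The sums include the keratins KRT8, KRT18, KRT19 and KRT20, and the 3 genes named as higher make up little of them. CDX1 and PHGR1 were unread in both groups, and MUC13 in NICD3. Of 20 astrocyte and glioma markers 7 were tested, 3 higher and 2 (1 without EV 1, EV 3 or NICD3 3, 0 without EV 2) lower, with sums of 80.9 to 82.3 CPM in EV and 99.98 to 103 CPM in NICD3, a difference smaller than the rise of ALDH1L1 alone (1.53 to 30.2 CPM). GFAP, which defines astrocytes, stood at 1.66 to 2.65 CPM. Leukocyte markers summed to 28.1 to 30.5 CPM in EV and 9.59 to 10.2 CPM in NICD3, endothelial markers to 96.1 to 132 and 234 to 315 CPM, and fibroblast markers to 67 to 76.6 and 80.1 to 102 CPM. Of 16 leukocyte markers 9 were tested, 2 higher and 5 lower, of 13 endothelial ones 4, 2 and 2, and of 16 fibroblast ones 7, 2 and 5. The read filter was passed through EV alone by 4 of the leukocyte, 1 of the endothelial and 2 of the fibroblast genes. Another 2 leukocyte genes passed it without EV. TIE1 of endothelium (16.6 to 0.0514 CPM), CD3D of T cells (6.24 to 0.0486 CPM) and CSF1R of macrophages (5.57 to 0.0622 CPM) were read in EV and hardly in NICD3, while the endothelial cadherin CDH5 was too low to test. TIE1, CD3D and CSF1R are examples of falls only. The 2 endothelial and 2 leukocyte markers called higher are not named here. The part of other cells in the results was not tested, and in bulk RNA fewer cells of a type and less RNA per cell cannot be told apart.

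The difference was broad. Of 15122 genes, 4908 (32.5%) were called higher and 5559 (36.8%) lower in NICD3 than in EV by limma at a Benjamini-Hochberg adjusted p under 0.05, and the 3 NICD3 libraries lay wholly above or below the 3 EV libraries for 4859 and 5506 of them. With a change of at least 2-fold also required, 1959 genes (13%) were higher and 2299 (15.2%) lower. Scaling to total counted reads in place of TMM factors gave 3014 higher and 8258 lower calls, and it shifted the median log2 change of all genes from -0.08 to -0.48. Some 912 tested genes passed the read filter through EV alone and 577 without any EV library, so the filter itself favours a difference in those. Several lists below hold such genes, also where no number of them is given. The change ran with the GC content of the transcripts: over 10 groups of genes of equal size, the median log2 change was -0.56 in the group with the lowest GC and 0.62 in the group with the highest, as the plot of change against GC content shows. With each library's GC trend removed, 3763 of the genes called higher and 4006 of those called lower kept their call, and 96 and 97 were called in the other direction. Beside a list, the words GC and total therefore give its higher and then its lower count with the GC trend removed and with total counted reads, where these are not written out. A list is read against the shares over all genes, and a count near 32.5% higher and 36.8% lower is no result about its members. With the GC trend removed these shares were 32.8% and 33.4%. A count with total counted reads is read against the 3014 higher and 8258 lower of all 15122 genes at that setting. The share of calls that were rises was 46.9%, and 26.7% with total counted reads. Genes below are given as group means of the 3 libraries where no single values are printed, and each one said to rise or fall passed the test. Where 2 means are joined by the word to, the first is EV and the second NICD3. A count in parentheses with a library name gives the same count without that library, written as its group and replicate number.

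**Figure D1:**
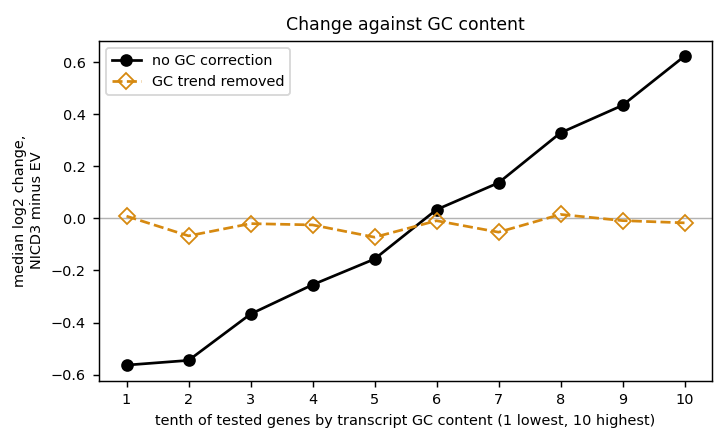
Median log2 change of NICD3 minus EV in 10 groups of tested genes of equal size ordered by transcript GC content, with no GC correction (filled circles) and after each library's GC trend was removed (open diamonds). The uncorrected medians run from -0.56 to 0.62, and the corrected ones lie near 0.

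The 20 largest rises outside the NOTCH pathway and the keratins ranged from 3.48 to 6.64 on the log2 scale. Placental alkaline phosphatase ALPP (chr2:233243244-233247599 on GRCh37) was read at 0.457, 0.346 and 0.274 CPM in EV and 45.9, 38.3 and 38.2 CPM in NICD3, a log2 change of 6.64 ± 0.20 (SE) with a limma adjusted p of 4.9e-12. The NICD3 libraries lay far above the EV libraries. PRSS23, a secreted serine protease, followed at 0.137, 0.315 and 0.235 CPM in EV and 17, 17.2 and 18.6 CPM in NICD3 (log2 change 6.01 ± 0.20). COBL, an actin nucleator, went from 0.234 to 16.9 CPM, and RBM47, an RNA-binding protein of epithelial cells, from 0.575 to 27 CPM. FXYD3, a regulator of the sodium pump, rose by 4.93 on the log2 scale, the phosphatase inhibitor PPP1R1A by 4.95, and the zinc finger gene ZFR2 by 5.36. THBS1 encodes thrombospondin, an adhesive matrix protein, and was read at 1.19, 1.32 and 1.21 CPM in EV and 33.2, 39.7 and 43.5 CPM in NICD3. The hair keratin-associated KRTAP3-1 was already read in EV (14.6 ± 1.52 CPM, SD, n = 3) and reached 342 ± 30.8 CPM.

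IGFBP6, which binds insulin-like growth factor 2, was read at 12.7, 8.76 and 10.1 CPM in EV and 184, 158 and 153 CPM in NICD3 (log2 change 3.97 ± 0.17). A pair of membrane proteins of the tetraspanin-like TM4SF family, encoded side by side on chromosome 3, rose together: TM4SF1 from 0.641 to 11.7 CPM and TM4SF18 from 0.873 to 14.7 CPM. The protocadherin PCDH1 rose by 4.01 on the log2 scale. HLA-DRB1, a class II antigen-presenting chain with near-identical copies, stood at 0.97 to 13.6 CPM, and the ubiquitin ligase SH3RF2 at 0.905 to 10.6 CPM. The other 4 genes, ALDH1L1, STRA6, PPARG and DHRS3, are described with retinoid metabolism and the nuclear receptors. All 20 rises kept the direction and the call with the GC trend removed.

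Promoters of 4 of these genes are shown because they hold TGGGAA, the core letters that RBPJ binds, on either strand. Each is the 250 bases before the gene's start in RefSeq on GRCh38.p14, printed 5′ to 3′ on the gene's strand: FXYD3 on chr19:35117750-35117999, plus strand, ALDH1L1 on chr3:126180587-126180836, minus strand, IGFBP6 on chr12:53097417-53097666, plus strand, and TM4SF18 on chr3:149333637-149333886, minus strand. Capitals mark TGGGAA or its reverse complement TTCCCA.
FXYD3: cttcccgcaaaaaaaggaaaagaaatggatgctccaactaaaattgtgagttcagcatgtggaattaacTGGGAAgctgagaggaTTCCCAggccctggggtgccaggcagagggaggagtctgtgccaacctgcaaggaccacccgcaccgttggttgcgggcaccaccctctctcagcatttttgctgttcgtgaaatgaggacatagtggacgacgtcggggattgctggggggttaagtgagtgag
ALDH1L1: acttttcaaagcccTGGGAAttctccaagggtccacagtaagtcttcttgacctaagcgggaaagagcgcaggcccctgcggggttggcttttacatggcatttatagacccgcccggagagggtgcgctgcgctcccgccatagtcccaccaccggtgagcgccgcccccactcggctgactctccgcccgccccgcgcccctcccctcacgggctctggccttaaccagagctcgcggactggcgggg
IGFBP6: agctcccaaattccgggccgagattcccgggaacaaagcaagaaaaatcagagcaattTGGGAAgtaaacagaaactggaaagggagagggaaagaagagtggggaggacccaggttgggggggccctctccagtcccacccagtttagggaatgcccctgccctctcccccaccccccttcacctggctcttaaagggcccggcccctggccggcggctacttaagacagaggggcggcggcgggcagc
TM4SF18: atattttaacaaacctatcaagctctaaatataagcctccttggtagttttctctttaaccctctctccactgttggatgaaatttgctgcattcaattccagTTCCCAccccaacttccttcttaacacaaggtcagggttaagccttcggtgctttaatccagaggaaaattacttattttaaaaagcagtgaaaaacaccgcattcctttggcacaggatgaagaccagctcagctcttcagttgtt

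Of the 20 largest rises 17 had a promoter in the RefSeq table and 6 held TGGGAA, and of the 20 largest falls 17 and 6. Over all tested genes with a promoter, 2140 of 10995 (19.5%) held it, against 280 of 1317 (21.3%) among genes at least 2-fold higher and 338 of 1610 (21%) among genes at least 2-fold lower. The AP-1 element TGANTCA was in 4.0% of all, 5.2% of the higher and 5.0% of the lower set. A match is a description of letters, not a bound site.

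The 20 largest falls were led by cancer-testis genes, a class normally read only in germ cells and switched on in some tumours. MAGEC2 (chrX:141290131-141293076) was read at 82.3, 95.2 and 96.9 CPM in EV and 0, 0.137 and 0.0373 CPM in NICD3, a log2 change of -9.85 ± 0.46 (SE; limma adjusted p = 3.5e-10). SSX1, a transcriptional repressor of the same class, stood at 52, 57.7 and 57.5 CPM against 0.125, 0.137 and 0.0747 CPM. MAGEA6, MAGEA1, GAGE1, GAGE2A and GAGE12H changed by -8.03 to -6.30 on the log2 scale, and reads of these near-identical copies may be shared between them. Of the 30 cancer-testis and germline genes listed, 21 were tested, 2 were called higher and 18 lower, with a median log2 change of -6.50 (-6.38 with GC removed, GC 2 and 19, total 1 and 19), but 12 of the 21 passed the read filter through EV alone. PAGE5, with 4516 reads in EV and 1 in NICD3, and MAGEC1, with 3082 and 1, were close to absent in NICD3. PAGE1 went the other way, from 486, 299 and 372 CPM in EV to 1240.4, 975 and 961 CPM in NICD3, and MAGED1, which is read in many tissues, rose by 0.41. The low level was not particular to NICD3: MAGEC2 averaged 0.0409, 0 and 0.0214 CPM and SSX1 0.263, 0.449 and 0.15 CPM in NICD1, NICD2 and NICD4.

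CREB5, a transcription factor that binds cAMP response elements, was read at 19, 19.5 and 19.2 CPM in EV and 0.188, 0.137 and 0.261 CPM in NICD3, and the testis alpha-tubulin TUBA3C at 29.5, 22.2 and 23.2 and 0.125, 0.0915 and 0.149 CPM. HBE1, the embryonic haemoglobin chain, changed by -5.10 ± 0.15 and the matrix protein EFEMP2 by -5.08 ± 0.22 on the log2 scale. COX7B2, a testis form of a respiratory chain subunit, changed by -4.89, the actin nucleator FMN1 by -4.36, and the noncoding LINC01287 by -6.62. In NICD1, NICD2 and NICD4, CREB5 averaged 0.082, 0.394 and 0.367 CPM, TUBA3C 0.0456, 0.0135 and 0.031 CPM, and EFEMP2 0.772, 0.661 and 0.865 CPM. CREB5, TUBA3C and LINC01287 averaged under the filter's 0.548 CPM in every NICD group, so they were tested through EV. HBE1 averaged more in these groups than in NICD3, at 13.2, 8.69 and 4.67 CPM. RNF43, the ubiquitin ligase that removes WNT receptors, fell from 8.5 to 0.669 CPM, and GALNT5, which starts mucin-type sugar chains, from 10.6 to 0.726 CPM. TMEM200A, ESPNL, CHM and SOHLH2 completed the 20 with log2 changes of -4.03, -3.95, -3.85 and -3.80. The plot of the most changed genes shows every library, and the rule that chose these genes required that the groups not overlap.

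**Figure D2:**
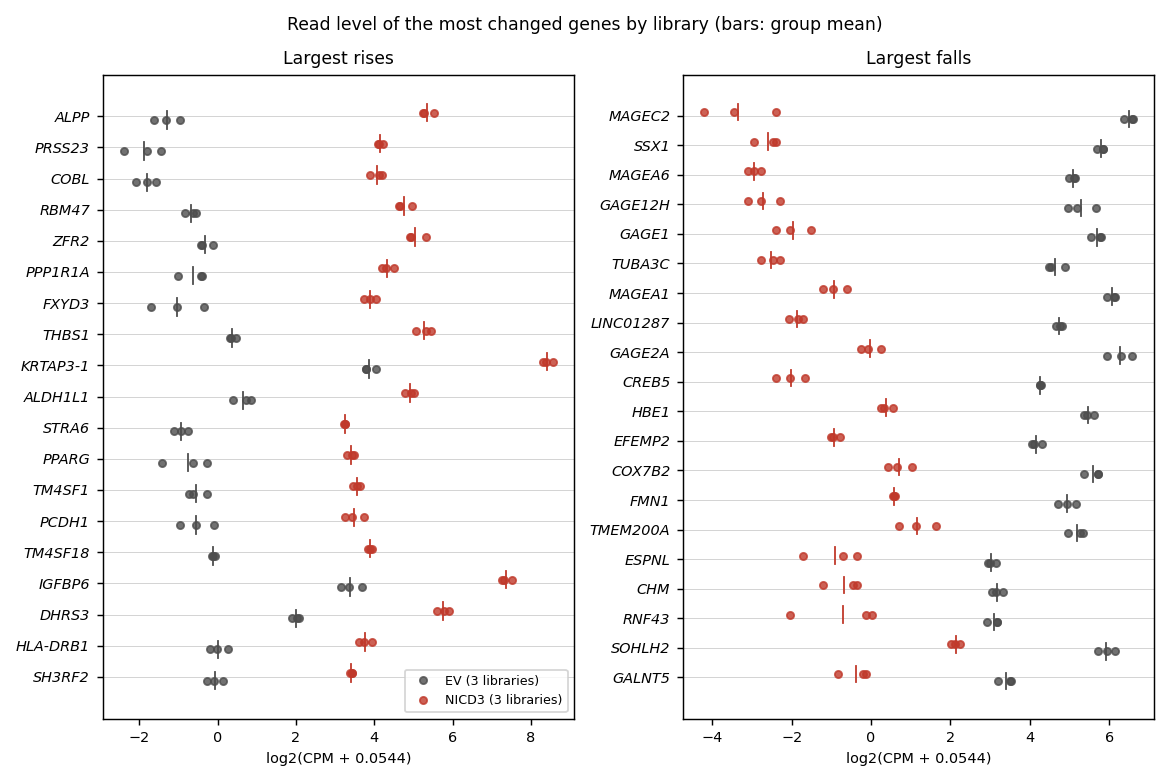
Level of 19 of the 20 largest rises (left) and 20 largest falls (right) in each of the 3 EV (grey) and 3 NICD3 (red) libraries, as log2(CPM + 0.0544), with a bar at each group's mean. ALPP lies below 0.458 CPM in every EV library and above 38.1 CPM in every NICD3 library, and MAGEC2 has the reverse order.

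Some genes of retinol import, retinoid metabolism and retinoic acid sensing rose and others fell, and several aldehyde dehydrogenases rose. Not every member of the pathway outlined next is given a value. Retinol enters cells through STRA6, is oxidised to retinal and then to retinoic acid by ALDH1A enzymes, is reduced back by DHRS3, is carried by CRABP2, acts through RAR and RXR receptors and is broken down by CYP26 enzymes. STRA6 (chr15:74471807-74502046) was read at 0.412, 0.535 and 0.469 CPM in EV and 9.28, 9.47 and 9.44 CPM in NICD3 (log2 change 4.17 ± 0.16, limma adjusted p = 4.8e-11). DHRS3 (chr1:12627939-12677737) stood at 4.03, 4.16 and 3.67 and 59.5, 55 and 48.5 CPM (log2 change 3.76 ± 0.12), and ALDH1A3 (chr15:101402129-101456831) at 21.4, 22.5 and 21.7 and 91.6, 94.9 and 99.4 CPM (log2 change 2.12 ± 0.08). The receptor RARG rose from 15.8 to 36.1 CPM and the catabolic CYP26A1 from 0.791 to 2.07 CPM, while CYP26B1 fell from 6.36 to 3.9 CPM and the retinol dehydrogenases RDH10 and RDH11 fell by 0.84 and 0.59 on the log2 scale.

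Among the aldehyde and drug enzymes, ALDH3A1 rose from 0.356 to 3.38 CPM and ALDH3B1 from 6.46 to 29.2 CPM. ALDH1L1, a folate enzyme that is also an astrocyte marker, was read at 1.74, 1.26 and 1.6 CPM in EV and 27.7, 32.2 and 30.6 CPM in NICD3 (log2 change 4.26 ± 0.25). GSTP1, the glutathione transferase, went from 730.2 ± 145 to 2099.5 ± 329 CPM (SD, n = 3), and CYP2S1 rose by 1.56. CYP1A1, the classical target of the aryl hydrocarbon receptor, fell from 10.6 to 2.16 CPM, and mitochondrial ALDH2 changed by -0.42. Of 21 tested members of the aldehyde, retinoid and drug metabolism list, 12 were called higher and 5 lower, with 10 at least 2-fold higher and 1 at least 2-fold lower. The median log2 change was 0.68, with -0.08 over all genes, and 13 higher and 6 lower were called with GC removed (total 11 and 7).

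PPARG, the nuclear receptor that drives fat storage and gut epithelial maturation, was read at 0.32, 0.598 and 0.782 CPM in EV and 10.7, 9.84 and 11.1 CPM in NICD3 (log2 change 4.17 ± 0.30). The oestrogen receptor ESR1 went the other way, with 9.79, 10.3 and 11.1 CPM in EV and 0, 0.0458 and 0.0373 CPM in NICD3, or 823 reads against 2, a ratio of 336 with a 95% counting interval of 92.6 to 2776. The oxysterol receptor NR1H3 rose from 14.4 to 42.3 CPM, and NR2F2, which shapes mesenchymal and venous fates, fell from 49.2 to 15.5 CPM. Of 27 nuclear receptors and partners tested, 1 of which passed the read filter through EV alone, 7 were called higher and 10 lower (with GC removed 5 higher and 14 lower, total 5 and 16). The clock list, which shares NR1D2 with it, had 5 (3 without NICD3 1 or NICD3 3) of 19 higher, led by BHLHE41 at 0.202 to 1.84 CPM and DBP at 9.71 to 23.6 CPM, and 9 lower, led by NR1D2 (-1.88) and BMAL1 (-1.58), with log2 changes in parentheses (GC 3 and 8, total 3 and 11).

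Growth factor genes changed ligand by ligand. FGF9, which signals through FGF receptors between epithelium and mesenchyme, was read at 0.229, 0.315 and 0.156 CPM in EV and 7.9, 10.3 and 10.7 CPM in NICD3 (log2 change 5.10 ± 0.20, limma adjusted p = 7.0e-11). PDGFB rose from 5.03, 5.57 and 5.32 to 32.1, 34.9 and 34.3 CPM over the 3 libraries of each group, and FGF19, an ileal hormone that acts on the liver, from 7.93 to 29.7 CPM. TGFA, a ligand of the EGF receptor, stood at 1.24, 0.787 and 1.21 CPM in EV and 10.8, 11.7 and 12.4 CPM in NICD3. BTC, another ligand of that receptor, had 3 reads in EV and 96 in NICD3, a ratio of 39.2 (95% counting interval 13 to 194). NRG1, the ligand of ERBB3 and ERBB4, rose from 87.7 ± 1.75 to 143 ± 6.85 CPM (SD, n = 3). EREG and EGF, also ligands of the EGF receptor, fell from 3.33 to 0.431 CPM and from 0.842 to 0.135 CPM. Of 14 tested genes of the EGF receptor family and its ligands, 7 were higher and 5 lower, and with GC removed 7 higher and 5 lower (total 4 and 5).

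On the receptor side, ERBB3 rose by 0.83, while the inhibitory LRIG1 and LRIG3 changed by -1.25 and -1.33 on the log2 scale. The insulin-like growth factor receptor IGF1R fell from 17.8 ± 1.35 to 4.64 ± 0.293 CPM, the insulin receptor INSR from 20.6 ± 2.47 to 9.96 ± 0.753 CPM, and the ligand IGF2 from 8.42 ± 0.256 to 3.69 ± 0.209 CPM (SD, n = 3 each). The adaptor IRS2 rose from 3.99 to 12.4 CPM. NRP1, a coreceptor for VEGF and semaphorins, was read at 10.5, 13.3 and 12.9 CPM in EV and 1.19, 1.05 and 1.31 CPM in NICD3, and PDGFC fell from 40.3 to 7.23 CPM. The VEGF receptor FLT1 had 134 reads in EV and 1 in NICD3. In the list of FGF, VEGF, PDGF, HGF and IGF genes, 13 of 30 were higher and 12 lower, and 9 higher and 14 lower with GC removed (total 8 and 16). Of these 30 genes, 2 passed the read filter through EV alone and 2 without EV.

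Of the WNT ligands, WNT5A fell and WNT5B, WNT6 and WNT11 rose. WNT5A, the main noncanonical ligand, had 3.2, 4.6 and 3.87 CPM in EV and no read in any NICD3 library, which makes it at least 85.6-fold lower against a floor of 3 reads over the group. WNT6 was read at 1.28, 0.693 and 0.86 CPM in EV and 7.97, 7.69 and 6.57 CPM in NICD3, WNT5B at 0.32, 0.126 and 0 and 1.57, 1.65 and 1.64 CPM, and WNT11 at 0.64, 0.472 and 0.625 and 2.38, 3.07 and 2.65 CPM. None of these overlapped between the groups. The same held for 4859 of all 4908 genes called higher and 5506 of all 5559 called lower. The receptors FZD2 and FZD9 rose by 2.30 and 1.56 on the log2 scale, while FZD6 and FZD3 changed by -1.23 and -1.06. The genes called lower include 3 inhibitors of WNT signalling: RNF43 with a log2 change of -3.81, the WNT deacylase NOTUM from 32.1 ± 0.663 to 8.54 ± 1.17 CPM (SD, n = 3) and NKD1 from 5.75 to 2.42 CPM. Over the list, 13 of 36 tested genes were called higher and 15 lower, close to the 32.5% and 36.8% of all genes. With GC removed 12 higher and 14 lower were called (total 10 and 19). The read filter was passed through EV alone by 2 of the 36 and without EV by 2.

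The receptors TGFBR2, ACVR1 and BMPR2 fell from 9.68 to 1.77 CPM, 10.3 to 3.35 CPM and 14.8 to 5.22 CPM, in that order. SMAD7 and SMAD6, inhibitors that the pathway induces as feedback, changed by -2.51 ± 0.48 and -1.62 ± 0.27 on the log2 scale, and PMEPA1, another feedback gene, by -2.53 ± 0.36. SMAD1, which carries the BMP signal, fell from 2.91 to 0.567 CPM. LTBP3, which stores latent TGF-beta in the matrix, rose from 80.3, 59.8 and 61.9 CPM in EV to 342, 299 and 294 CPM in NICD3, and the activin subunit INHBB from 0.0881 to 0.722 CPM. Of 28 tested members 17 were lower, 10 of them at least 2-fold, and 3 higher, with a median log2 change of -0.53 (-0.45 with GC removed, when 3 higher and 15 lower were called, total 2 and 21). In the hedgehog pathway 5 (3 without EV 2) of 9 were lower, among them KIF7 of the primary cilium (8.0 to 0.359 CPM) and the receptor PTCH1 (4.86 to 1.47 CPM), and GLI2 and BOC were higher (GC 2 and 5, total 2 and 6). The read filter was passed through EV alone by 2 of these 9 and without EV by 1. Of the YAP and TEAD targets 5 of 21 were higher and 10 lower (GC 5 and 12, total 3 and 13), including ANKRD1 (7.22 to 1.61 CPM), CRIM1 (31.7 to 6.15 CPM) and NT5E (31.9 to 8.0 CPM).

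**Figure D3:**
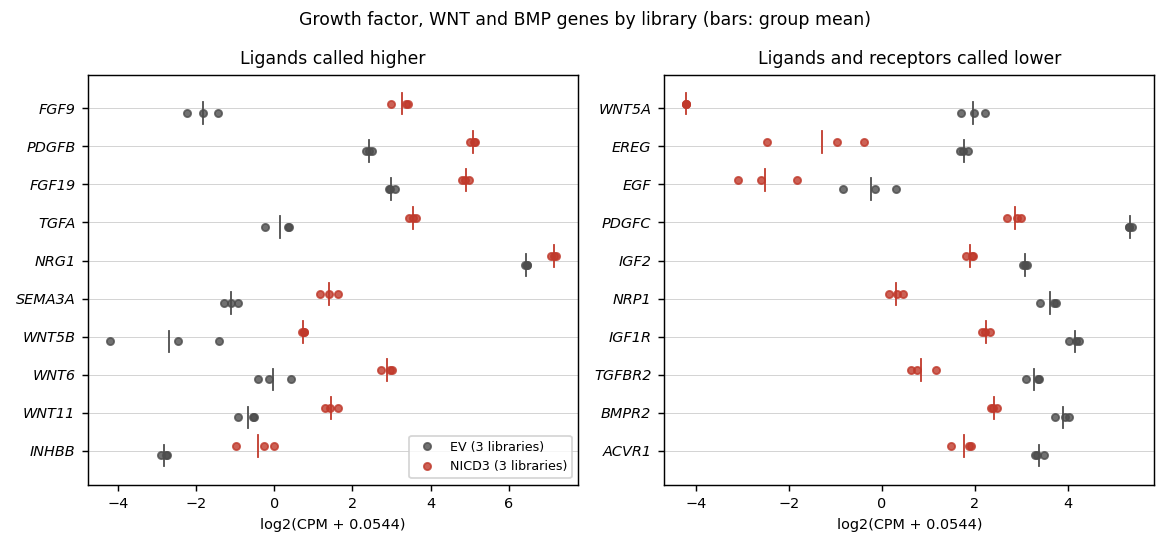
Level of 10 ligand genes called higher and 10 ligand and receptor genes called lower in the 3 EV (grey) and 3 NICD3 (red) libraries, as log2(CPM + 0.0544), with a bar at each group's mean. FGF9 is below 0.5 CPM in every EV library and above 7 CPM in every NICD3 library, and WNT5A has no read in NICD3.

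Feedback genes of the ERK cascade, which dampen growth factor signals, split by gene. DUSP6, the ERK phosphatase, was read at 251, 271 and 257 CPM in EV and 17.8, 19.3 and 21.2 CPM in NICD3 (log2 change -3.74 ± 0.11), and SPRY4 and SPRED2 fell by 1.19 and 1.24. DUSP5 rose from 199 ± 20.5 to 436 ± 29.98 CPM (SD, n = 3), and the transcription factor ETV4 from 85 to 177 CPM. HRAS rose from 73.4 to 206 CPM, while NF1 and RASA1, which switch RAS off, changed by -1.44 and -1.70. The list had 9 of 26 higher and 12 lower (GC 9 and 12, total 7 and 16). Immediate early factors, transcribed within minutes of a signal, were lower in 12 of 24 and higher in 3. EGR1 was read at 112, 129 and 119 CPM in EV and 23.5, 22.6 and 25.5 CPM in NICD3, and NR4A2 fell from 9.2 to 1.14 CPM, FOS from 7.41 to 2.6 CPM and ATF3 from 36.5 to 15.6 CPM. FOSL1, an AP-1 member, went against them with 180.0, 144 and 152 CPM in EV and 555, 443 and 494 CPM in NICD3. With GC removed, 17 of the 24 were lower and 1 higher (total 1 and 18).

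In the PI3K, AKT and mTOR list 4 of 28 were higher and 13 lower (5 higher and 16 lower with GC removed, total 2 and 21). INPP4B, a lipid phosphatase that opposes PI3K, rose from 3.32 ± 0.58 to 13.1 ± 1.46 CPM (SD, n = 3), and the kinase PDPK1 fell from 16.3 to 6.92 CPM. Semaphorin, plexin and neuropilin genes, which guide axons and vessels, were higher in 5 of 23 and lower in 12 (GC 5 and 16, total 4 and 15): SEMA3A (0.412 to 2.61 CPM) and SEMA6B (18.9 to 72.2 CPM) stood against PLXNB3 (0.947 to 0.18 CPM) and SEMA4C (29 to 15.2 CPM). Ephrins and their receptors, which set cell boundaries along the crypt, were higher in 7 and lower in 2 of 14, but 7 higher and 7 lower with GC removed (total 7 and 7). EFNA3, EFNA4 and EPHB3 rose by 1.59, 1.59 and 1.64, and EFNB3 changed by -3.09. For cAMP and G protein signalling, 7 of 28 were higher, led by the orphan receptor GPRC5A at 41 to 161 CPM, and 14 lower, among them the adenylyl cyclases ADCY7 (-1.04) and ADCY3 (-0.90), with GC 10 and 13, total 4 and 17.

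Tight junctions seal epithelia, and of 21 tested members 15 were called higher and 3 lower (median log2 change 0.71, 16 higher and 2 lower with GC removed). The polarity protein CRB3 was read at 5.31, 4.38 and 4.57 CPM in EV and 33.6, 28.5 and 27.6 CPM in NICD3, CLDN6 at 11.3, 9.29 and 10.6 and 47.1, 37.1 and 38.2 CPM, and the scaffold TJP3 rose from 3.04 to 11.4 CPM. CLDN15, a pore-forming claudin of the gut, fell from 10.3 to 4.85 CPM. Of 15 desmosome and hemidesmosome genes 9 were higher and 2 lower (GC 9 and 3). The desmosomal cadherins DSC2 and DSC3 rose from 1.33 to 10.4 CPM and from 0.214 to 2.27 CPM, and ITGB4, the hemidesmosome integrin, from 23.7 ± 2.09 to 73.4 ± 5.02 CPM (SD, n = 3). DST and COL17A1 of the hemidesmosome changed by -1.57 and -1.83. Scaling to total counted reads gave 12 higher and 6 lower among tight junction and 7 higher and 6 lower among desmosome genes. Over all 15122 genes it gave 3014 higher and 8258 lower. Among cadherins PCDH1 and CDH3 (21.1 to 52.4 CPM) rose and FAT1 (115 to 29.3 CPM) and CELSR1 fell, 2 and 2 of 8 (GC 3 and 5, total 2 and 4).

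Collagens and laminins of the basement membrane were lower in 8 and higher in 6 of 19 (3 higher and 10 lower with GC removed, total 3 and 12). COL4A2 fell from 2.17 to 0.257 CPM, COL4A5 from 11.6 to 3.89 CPM, LAMA5 from 119.6 ± 17 to 52.5 ± 8.6 CPM (SD, n = 3) and AGRN from 65.2 to 31.8 CPM, while LAMA3, a laminin-332 chain, rose by 1.36. COL3A1 of fibrillar matrix had 439 reads in EV and none in NICD3, at least 119-fold lower. Integrins were higher in 5 and lower in 5 of 13 (GC 4 and 6, total 4 and 7), with ITGA2, a collagen receptor, at 9.23 to 1.71 CPM and ITGA3, a laminin receptor, at 54.4 to 106 CPM. Proteases and inhibitors split 9 higher and 9 lower of 20 (GC 8 and 9, total 7 and 11). MMP9 rose from 0.619 to 3.34 CPM, MMP15 from 30.4 to 86 CPM and TIMP1 from 111 to 242 CPM, and ADAM19 was read at 27.5, 33 and 27.9 CPM in EV and 3.76, 3.29 and 4.52 CPM in NICD3. MMP7, the matrilysin of gut epithelium, had no read in EV and 36 in NICD3, at least 14.7-fold higher. SERPINB5, the serpin known as maspin, fell from 4.42 to 0.161 CPM.

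Tubulins and their motors were 10 higher and 7 lower of 19 (GC 8 and 5): TUBA4A rose from 119 to 263 CPM and MAP1B from 13.5 to 38.6 CPM, and TUBB3, the neuronal beta-tubulin, fell from 1.27 to 0.0803 CPM and TUBA1B from 92 to 30.8 CPM; with total counted reads 4 higher and 9 lower were called. Alpha-tubulin genes are near-identical in their coding parts, so reads may be split between them.

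Several genes of small calcium-binding S100 proteins rose. S100A6 was read at 835, 534 and 651 CPM in EV and 5082, 4020.1 and 3989.5 CPM in NICD3 (log2 change 2.71 ± 0.19, limma adjusted p = 2.8e-08), and S100A2 at 70.1, 44.8 and 56.2 and 427, 355 and 335 CPM. S100A4, which is linked with cell motility, went from 184 ± 39.7 to 764 ± 135 CPM (SD, n = 3). S100A3, S100A11, S100A13 and S100A10 rose by 1.20 to 2.12 on the log2 scale, while S100A16 changed by -0.69. With the annexins, 10 of 19 were higher, 9 of them at least 2-fold, and 4 lower. With GC removed 11 higher and 3 lower were called, and 8 higher and 6 lower with total counted reads. ANXA5 fell from 207 to 113 CPM. Among metallothioneins, which bind zinc and copper, 3 rose: MT2A from 93.5, 61.5 and 70.01 CPM in EV to 341, 251 and 257 CPM in NICD3, MT1E from 97.7 ± 20.5 to 329 ± 37.2 CPM and MT1X from 7.33 to 21.3 CPM, with near-identical copies that may share reads. The ferritin chains FTH1 and FTL rose by 1.12 and 1.00, and the transferrin receptor TFRC changed by -0.43. Of 14 genes of the metal list 7 were higher, each at least 2-fold, and with total counted reads 6 higher and 7 lower were called (GC 7 and 4). Another 6 were lower, among them the zinc carriers SLC39A6 (106 to 40.3 CPM) and SLC30A1 (20.4 to 10.6 CPM).

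The pentose phosphate and NRF2 list was higher in 13 of 22 and lower in 5 (3 without EV 2 or EV 3), with 13 higher and 4 lower after GC removal and 10 higher and 6 lower with total counted reads. Of the 22 genes, 3 passed the read filter without EV. PGLS and TALDO1 of the pentose phosphate pathway rose from 24.4 ± 6.36 to 78 ± 13.5 CPM and 226 ± 30.5 to 466 ± 53.1 CPM (SD, n = 3 each). The haem oxygenase HMOX1 rose by 0.84 and OSGIN1 by 1.24. NFE2L2, which encodes NRF2 itself, was lower at 16.7, 25.5 and 23 CPM in NICD3 against 44.7, 66.2 and 62.3 CPM in EV, and the glutathione synthesis gene GCLC fell from 33 to 21.9 CPM. Glycolysis genes were 11 higher and 6 lower of 23 (GC 9 and 6): the glucose carrier SLC2A1 rose from 125, 146 and 130.4 to 338, 336 and 351 CPM and ALDOA by 1.08, while the lactate carrier SLC16A1 fell from 143 to 75.3 CPM. With total counted reads 9 higher and 10 lower were called. Other hypoxia-inducible factor targets were lower in 13 of 19 and higher in 3 (median log2 change -0.70, 4 higher and 11 lower with GC removed, total 2 and 15). CA12, a carbonic anhydrase, fell from 6.45, 7.46 and 7.7 to 1.76, 1.37 and 2.02 CPM, the demethylase KDM3A from 34.1 to 11.2 CPM and PDK1 from 10.2 to 4.67 CPM, and ANGPTL4 and EGLN3 rose by 1.87 and 1.91.

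Of 19 fatty acid synthesis and desaturation genes 11 were lower and 2 (4 without EV 1) higher, with 8 lower and 3 higher after GC removal (total 0 and 15). ACSL5, which activates fatty acids in enterocytes, was read at 7.91, 7.72 and 7.35 CPM in EV and 0.502, 0.275 and 0.336 CPM in NICD3 (log2 change -4.22 ± 0.23). ACSL1 fell from 13.1 to 4.56 CPM and the desaturase FADS1 from 86.1 to 40.04 CPM, while FASN rose by 0.55 and stood at -0.11 with GC removed. In fatty acid oxidation, 6 of 22 were higher, with ETFB at 148 to 423 CPM, and 7 (4 without EV 2, EV 3 or NICD3 1) lower, with the peroxisomal ACOX2 at 6.16 to 0.427 CPM (GC 6 and 6, total 4 and 15). Cholesterol synthesis was higher in 7 and lower in 11 of 23 (GC 5 and 10, total 5 and 14). Among prostaglandin and lipid mediator genes, 4 of which passed the read filter through EV alone, 11 of 18 were higher and 3 lower (GC 9 and 4, total 5 and 5), with SPHK1 at 19.4 to 43.2 CPM and SGPP2 at 2.82 to 0.312 CPM. In tricarboxylic acid cycle genes 8 of 24 were higher and 6 (3 without EV 2) lower (GC 11 and 4, total 4 and 9), and IDH3A fell from 13.4 to 4.87 CPM while IDH3B rose from 125 to 218 CPM.

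Ribosomal protein genes rose. Of 51 cytosolic ribosomal protein genes 48 were called higher, with a median log2 change of 0.79 (0.86 with GC removed, when 49 were higher, 0.59 with GC and length removed). RPLP2 was read at 1819.7, 1124 and 1337 CPM in EV and 5326, 3905 and 3899 CPM in NICD3, and RPL28 rose by 1.62 and RPS19 by 1.42. These genes have many processed pseudogenes, so their levels are uncertain, and their share of all counted reads was 10.2% to 12.7% in EV and 15.5% to 17.2% in NICD3. Mitochondrial ribosomal proteins were higher in 31 of 37 and lower in 1, with a median of 0.94 (GC 32 and 0). With GC and length removed 24 were higher and 2 lower, and the median was 0.38. MRPL23 rose from 121 ± 31.5 to 442 ± 78.9 CPM and MRPL27 from 195 ± 45.8 to 521 ± 84.4 CPM (SD, n = 3 each). With total counted reads, 37 higher and 2 lower were called among cytosolic and 24 higher and 5 lower among mitochondrial genes.

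Proteasome subunits were higher in 20 of 30 and lower in 5 (3 without EV 1, EV 2, EV 3, NICD3 1 or NICD3 2), and no rise reached 2-fold. With GC removed 22 higher and 1 lower were called, with GC and length removed 16 and 3, and 10 higher and 11 lower with total counted reads. PSMB6 rose from 288 ± 40.8 to 548 ± 52.3 CPM, and PSMA6 fell from 13 ± 3.97 to 2.74 ± 1.18 CPM (SD, n = 3 each). Heat shock chaperones were higher in 13 of 25 and lower in 2 (1 without EV 2, EV 3, NICD3 1 or NICD3 2), with 16 higher and 1 lower after GC removal and 5 higher and 9 lower with total counted reads. HSPB1, the small heat shock protein, was read at 497, 332 and 370.4 CPM in EV and 2827, 2437 and 2218 CPM in NICD3 (log2 change 2.65 ± 0.19, limma adjusted p = 3.0e-08). The stress-inducible HSPA1B, nearly identical to HSPA1A, rose from 70.1, 45.3 and 59.6 to 238, 256 and 242 CPM, and its cochaperone DNAJB1 from 114 ± 11.6 to 326 ± 20.9 CPM. In the endoplasmic reticulum list 9 of 21 were higher, with SDF2L1 at 89.3 to 326 CPM and MANF at 128 to 329 CPM, and 6 (3 without EV 2, EV 3 or NICD3 1) lower, with PDIA6 at 78.8 to 37.2 CPM (GC 12 and 4, total 4 and 10). Translation factors split 15 higher and 10 (6 without EV 3) lower of 32 (GC 19 and 5, total 8 and 19), cytosolic aminoacyl-tRNA synthetases 10 and 5 (2 without EV 2, 3 without EV 3) of 20 (GC 9 and 3, total 3 and 10), and mitochondrial import genes 10 and 9 of 20 (GC 11 and 6, total 7 and 10). TIMM13 rose by 1.41 and EIF4EBP1, which holds back cap-dependent initiation, by 1.22.

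Of 33 genes of DNA methylation, Polycomb and histone modification 18 were called lower and 2 (1 without NICD3 2 or NICD3 3) higher, and 21 were lower and 3 higher with GC removed (total 1 and 30). RBBP4, a histone-binding subunit of several repressor complexes, was read at 26.3, 71.9 and 53.7 CPM in EV and 3.83, 5.17 and 6.64 CPM in NICD3 (log2 change -3.18 ± 0.49). SMARCA2, a chromatin-remodelling ATPase, stood at 3.84, 4.06 and 3.52 and 0.0627, 0.458 and 0.149 CPM. The histone demethylase KDM6A fell from 12.7 ± 2.63 to 4.37 ± 1.02 CPM, the Polycomb subunit BMI1 from 58.9 ± 6.32 to 20.9 ± 2.16 CPM and the methyltransferase DNMT3B from 15.1 to 7.66 CPM. HDAC9 and TET3 were the 2 that rose, by 1.46 and 0.61. Splicing factors were lower in 23 of 34, among them SF3B1 (254 to 117 CPM) and HNRNPH1 (416 to 206 CPM), but 13 were lower and 8 higher with GC removed, and the median moved from -0.35 to -0.09 (total 1 and 31). ESRP1, the splicing regulator of epithelia, rose from 26.4, 27.6 and 25.6 to 75.3, 71.6 and 71.8 CPM.

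Cell cycle genes did not move as 1 group. In mitosis 10 of 33 were higher and 17 lower, and 12 higher and 13 lower with GC removed (total 5 and 22). CDC20 rose from 403 ± 39.3 to 822 ± 90.4 CPM and MKI67 from 245 ± 6.06 to 451 ± 3.9 CPM, while CENPK fell from 9.64 ± 2.61 to 1.85 ± 0.0824 CPM and CENPF from 137 ± 24.2 to 64.1 ± 13.7 CPM (SD, n = 3 each). DNA replication had 9 higher and 8 lower of 31, with 10 higher and 5 lower after GC removal but 5 higher and 23 lower with total counted reads, led upward by the licensing factor CDT1 at 109 to 299.9 CPM. DNA repair had 8 higher and 14 lower of 34 (GC 10 and 12, total 3 and 26), with ERCC1 at 48.6 to 97.3 CPM and BRCA2 at 4.32 to 0.917 CPM. Of 24 G1 cyclins and their regulators 8 were higher and 8 lower, and 1 passed the read filter through EV alone. CCND2 had 216 reads in EV and none in NICD3, at least 58.7-fold lower, while CCND1 and CCND3 rose by 0.40 and 0.89; with GC removed 5 higher and 13 lower were called, and with total counted reads 2 higher and 15 lower. The retinoblastoma genes RB1 and RBL2 fell from 16.9 to 6.65 CPM and 2.14 to 0.444 CPM. Nucleotide synthesis had 7 and 10 (6 without EV 2 or EV 3) of 21 (GC 8 and 5, total 6 and 13), with thymidine kinase TK1 at 253 to 622 CPM, and polyamine genes 7 and 4 of 14 (GC 8 and 2, total 6 and 7), with SAT1 at 42.1 to 124 CPM.

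Targets of p53 were lower in 15 of 25 and higher in 6 (median log2 change -0.69, -0.36 with GC removed, GC 7 and 15, total 3 and 18). TP53INP1 was read at 21.5, 24 and 23 CPM in EV and 4.58, 5.08 and 4.59 CPM in NICD3, GADD45A at 64.9, 67.7 and 72.8 and 19.9, 23.7 and 24.9 CPM, and the repair gene XPC fell from 38.2 to 12.4 CPM. BAX, PHLDA3 and FDXR rose by 1.20, 1.30 and 1.03. Among death receptors and apoptosis genes, 11 of 32 were higher and 13 lower (GC 10 and 10, total 9 and 19). The receptor FAS fell from 11.1 to 3.61 CPM, its effector CASP8 from 17.4 to 6.88 CPM and the BH3-only gene BMF from 2.15 to 0.394 CPM, while the BH3-only genes BIK and HRK rose from 29.4 to 66.6 CPM and 0.739 to 1.97 CPM. TNFSF9, a T cell costimulatory ligand, was read at 43.2, 39.3 and 40.6 CPM in EV and 121, 107 and 109 CPM in NICD3. In autophagy 5 (3 without NICD3 1) of 24 were higher and 12 lower (GC 4 and 9, total 3 and 16), with BECN1 at 25.9 to 6.73 CPM and GABARAP at 208 to 433 CPM, and in the lysosome 13 were higher and 6 (3 without EV 1 or EV 2, 2 without EV 3) lower of 28 (GC 14 and 4, total 7 and 12), with TFEB, which drives lysosomal genes, at 1.54 to 6.05 CPM.

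Of 25 interferon-stimulated genes 7 were higher and 10 lower, near the 32.5% and 36.8% of all genes (GC 7 and 9, total 5 and 15). The read filter was passed through EV alone by 5 of them. IFITM3 was read at 158, 115 and 131 CPM in EV and 443, 386 and 372 CPM in NICD3, and ISG15 rose from 116 to 262 CPM, while BST2 fell from 30.1, 22.1 and 24.5 to 4.39, 3.34 and 2.84 CPM. In NF-kB genes 7 of 18 were higher and 6 lower, and with GC removed 3 higher and 8 lower (total 4 and 9). CXCL16 rose from 22.4 to 53.4 CPM and IL32 fell from 5.66 to 1.01 CPM. Cytokine receptors and STATs were higher in 7 and lower in 10 of 29 (GC 6 and 10, total 3 and 19): STAT6 fell from 38 ± 3.11 to 8.83 ± 1.42 CPM and STAT5B from 8.39 to 3.3 CPM, and STAT4 rose from 0.299 ± 0.124 to 1.9 ± 0.227 CPM (SD, n = 3 each). Complement and surface regulators were higher in 8 of 13 and lower in 2 (GC 6 and 2, total 4 and 2), with clusterin CLU at 135 ± 11.3 to 405 ± 50.9 CPM and SERPING1 at 1.34 to 5.45 CPM against the complement shields CD46 (48.1 to 22.4 CPM) and CD55 (31.9 to 17.3 CPM).

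Markers of intestinal lineages were read with few of their defining members. Of the secretory lineage list 13 of 34 were tested, 8 were lower and 1 higher (GC 1 and 8, total 1 and 9), and 3 each passed the filter through EV alone and without EV. TFF2 was read at 6.04, 4.6 and 4.07 CPM in EV and 0.125, 0.0458 and 0.0373 CPM in NICD3, DCLK1 fell from 55.4 ± 0.658 to 16.7 ± 0.73 CPM (SD, n = 3) and GFI1, a secretory fate factor, from 6.18 to 2.73 CPM. PYY, a peptide of enteroendocrine cells, rose from 0.0915, 0.063 and 0.156 to 2.76, 1.88 and 1.9 CPM. Brush border genes were higher in 7 of 14, with APOA1 at 0.16 to 2.45 CPM and USH1C at 4.38 to 13.9 CPM, and lower in 2, VIL1 (0.948 to 0.229 CPM) and ANPEP (0.761 to 0.082 CPM); with GC removed 7 higher and 6 lower were called (total 7 and 7). Gut transcription factors were 10 higher and 3 lower of 22, and 7 higher and 6 lower with total counted reads (GC 10 and 3): FOXA3 rose from 12 to 25.8 CPM and HOXB13 from 3.87 to 8.08 CPM, and MSX1 fell from 236 to 84.1 CPM. Mucin and sugar-chain genes, 3 of which passed through EV alone, split 8 higher and 8 lower of 23 (GC 10 and 8, total 4 and 12), with MUC12 at 1.52 to 4.23 CPM and MUC2 at 0.883 to 0.0803 CPM.

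Channels were higher in 9 and lower in 6 of 21 (GC 8 and 7, total 6 and 8), with the chloride channel ANO1 at 28.4 ± 0.193 to 74.4 ± 3.33 CPM (SD, n = 3), epithelial carriers 5 and 6 of 17 (GC 3 and 8, total 3 and 11), with AQP1 at 3.92 to 1.05 CPM, and ABC transporters 7 and 7 (4 without EV 2, EV 3 or NICD3 1) of 18 (GC 4 and 7, total 3 and 10). Of the epithelial carriers 3 passed the read filter through EV alone, and of the ABC transporters 3 without EV. ABCG2, a drug efflux pump, was read at 0.183, 0.063 and 0 CPM in EV and 2.57, 2.42 and 1.94 CPM in NICD3, and ABCC2 fell from 7.82 to 1.47 CPM. The peptide carrier SLC15A1 had 91 reads in EV and none in NICD3, at least 24.7-fold lower. Amino acid carriers were 7 higher and 6 lower of 19 (GC 8 and 6, total 4 and 9), the ATF4 list 7 and 4 of 16 (GC 7 and 6, total 4 and 9), with the stress hormone GDF15 at 40.3 to 156 CPM, and one-carbon enzymes 5 and 9 (5 without EV 2 or EV 3) of 21 (GC 5 and 6, total 3 and 15), with PHGDH of serine synthesis at 48.4 to 155 CPM. Ribosome biogenesis had 12 and 9 (4 without EV 2 or NICD3 2, 3 without EV 3, 5 without NICD3 1) of 27 (GC 12 and 7, total 5 and 15), clustered histones 6 and 1 of 12 (GC 5 and 1, total 2 and 1), and neuronal genes 6 and 6 of 15 (GC 3 and 7, total 3 and 8). With GC and length removed the histones were 2 higher and 3 lower. The plot of the gene lists shows those with the largest excess in either direction beside the background shares.

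**Figure D4:**
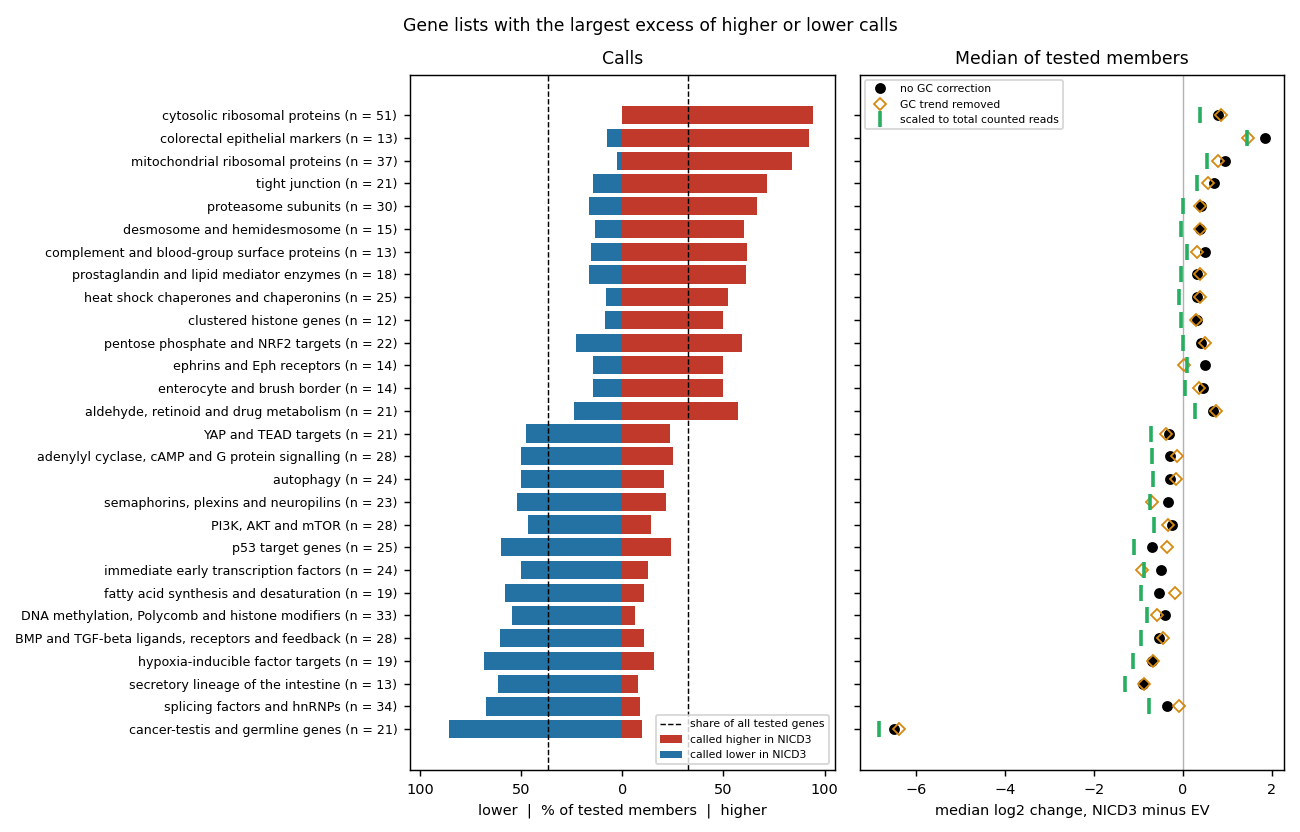
Left, percent of the tested members of each list called higher (red, to the right) or lower (blue, to the left) in NICD3 than in EV, with dashed lines at the shares of all tested genes, 32.5% higher and 36.8% lower. Right, the median log2 change of the members with no GC correction, with the GC trend removed and with scaling to total counted reads; cytosolic ribosomal proteins stand at 0.79 and cancer-testis genes at -6.50.

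The contrasts of NICD3 with the other domains compare no EV library directly, though EV shares in the scaling, the filter and the estimate of the spread. NICD3 was above each of NICD1, NICD2 and NICD4 for 121 genes (0.800%) and below each for 71 (0.470%), with all 3 limma adjusted p under 0.05. A fit of only the 12 NICD libraries called 99 and 62. Of the 121, 71 were also called higher than EV, 25 lower and 25 neither. Of the 71, 41 were lower than EV, 10 higher and 20 neither. Part of the retinoid group was among the 121. STRA6 averaged 1.62, 2.49 and 2.69 CPM in NICD1, NICD2 and NICD4 against 9.4 in NICD3, and ALDH1A3 67.9, 70.7 and 55.6 against 95.3. ALDH1L1 averaged 0.651, 0.367 and 5.88 CPM there, so 2 of those groups lay below EV (1.53 CPM). DHRS3 was not among them, with 64.3 CPM in NICD1.

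TM4SF1 averaged 0.796, 2.89 and 2.44 CPM in NICD1, NICD2 and NICD4 and 11.7 ± 0.797 CPM (SD, n = 3) in NICD3. FUZ, which helps build primary cilia, stood near its EV level of 2.98 CPM in the others (3.62, 2.97 and 4.3) and at 15.6, 16.7 and 16.3 CPM in the NICD3 libraries. Of the ligands above, FGF9 (3.91, 5.39 and 3.15 CPM elsewhere), SEMA3A (0, 0.090 and 0.157 CPM), NRG1 and TNFSF9 were higher in NICD3 than in each. MUC15, a membrane mucin, was called lower than EV in NICD3 (2.32, 4.39 and 4.14 CPM) and hardly read in the others (at most 0.031 CPM on average). The log2 change of MUC15 against EV was -1.22, and its call was lost without EV 2 (-1.12), EV 3 (-1.15) or NICD3 1 (-0.93) and with the GC trend removed (-0.62). TRIM38, a ubiquitin ligase of antiviral signalling, averaged 3.84 CPM in EV, 2.54 in NICD3 and 0.0733, 0.30 and 0.288 in NICD1, NICD2 and NICD4, and CD33, a myeloid surface receptor, 17.9, 5.77, and 0.702, 0.61 and 1.02 CPM in the same order.

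Among the 71, NRP1 averaged 2.79, 2.6 and 4.24 CPM in NICD1, NICD2 and NICD4 and 1.18 in NICD3. INSR averaged 14.7, 13.4 and 19.5 CPM against 9.96, and ACSL5 0.924, 0.975 and 0.828 against 0.371. DNTTIP2, a nucleolar protein, and MB21D2 were near EV in the other groups (179, 168 and 158 CPM for DNTTIP2, 176 in EV) and lower in NICD3 at 81.5, 91.6 and 97.4 and 9.66, 9.75 and 11.3 CPM. ABCA3 and EIF5AL1 were higher in the other NICD groups than in NICD3, and EIF5AL1 is a near-identical copy of EIF5A, so its reads are uncertain. With the GC trend removed 97 of the 121 and 57 of the 71 kept their call, and 131 genes in all were below each group. Without NICD3 2 the 121 became 75 and the 71 became 44, without NICD3 3 they became 76 and 43, and without NICD2 1 the 71 became 47. Without NICD4 1, the library with both names in its labels, 159 genes were above and 91 below each group.

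**Figure D5:**
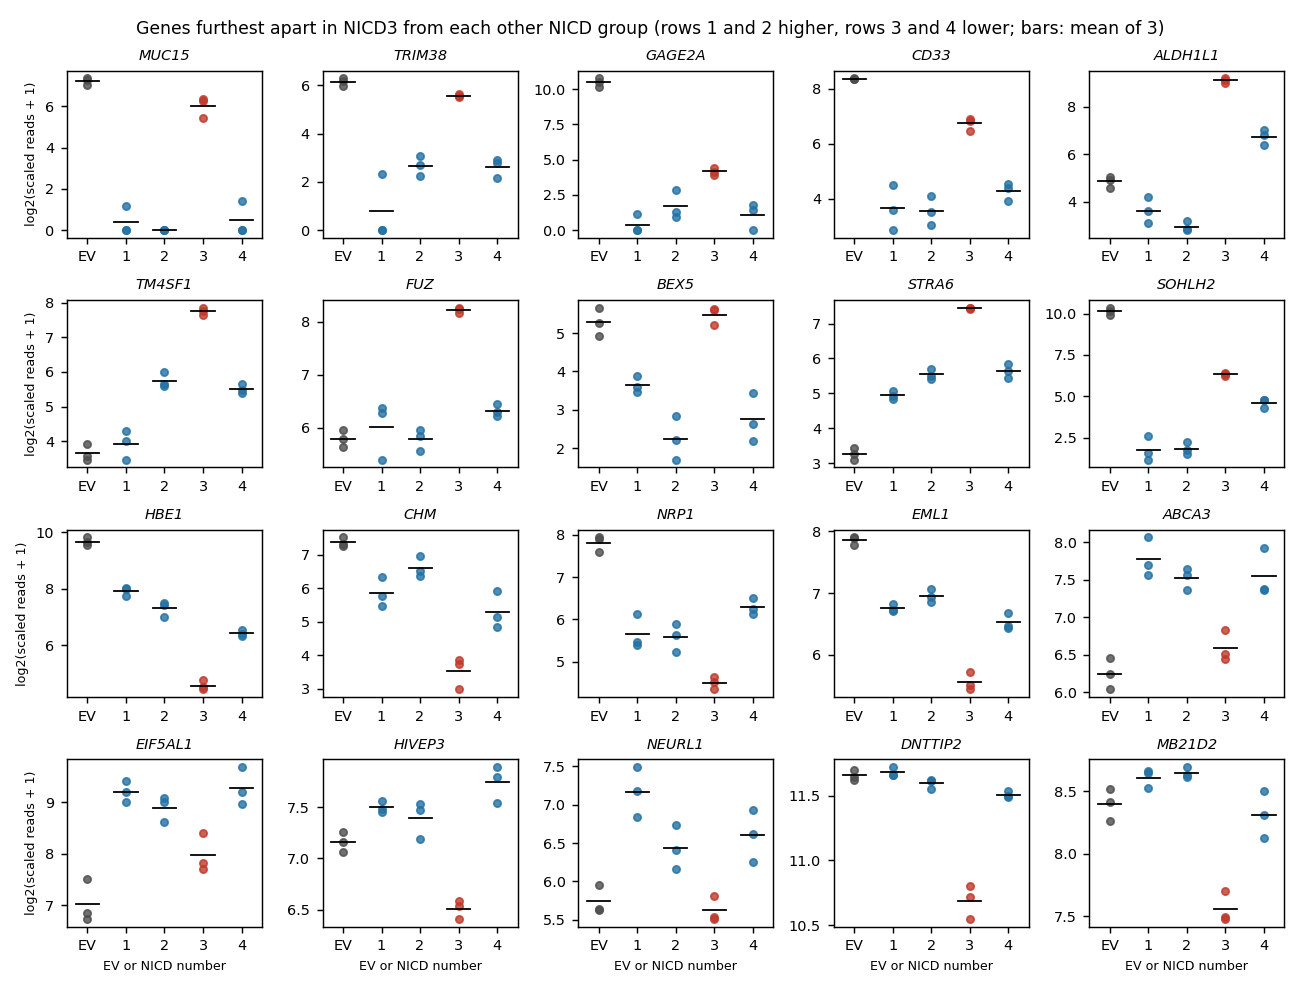
Level, as log2(scaled reads + 1), of 20 genes in EV (grey), NICD3 (red) and the other 3 NICD groups (blue), 3 libraries each, with a bar at the mean. In the upper 10 panels NICD3 lies above each other NICD group and in the lower 10 below, for example TM4SF1 at 11.7 CPM and NRP1 at 1.18 CPM in NICD3.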

How the data were processed

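PolyA RNA-seq libraries (TRIzol RNA, TruSeq version 2, a kit that does not mark strand) of 5 groups of 3 were used as 1 table. The table was deposited on a log2 scale, as its name says, and undoing the logarithm and subtracting 1 gave a whole read number within 0.001 for 100% of values. TopHat2 2.0.6, HTSeq and GRCh37 are named in the submitters' processing notes, without settings. Ensembl identifiers were named from a table of gene names and from GENCODE, and 1828 of 31352 had no symbol.

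Reads were scaled by TMM factors, raised by 1 (0.0544 CPM) and log2 transformed, so folds of low genes are understated. The 15122 genes tested reached 0.548 CPM, or 10 reads in a library of median depth, in 3 libraries or more, and 15 reads summed. All 15 libraries entered a single limma 3.58.1 model of group means (R 4.3.3, statmod 1.5.0; trended, robust prior). Tests were two-sided with Benjamini-Hochberg adjustment over all tested genes, and the script was tested on simulated data. Depth was 17867229 to 27704492 counted reads in the 6 libraries. Intervals and floors (3 reads over a group) cover counting error only.

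Named genes were the 20 largest rises and falls without overlap among the libraries and with a mean log2 CPM of at least 1, keratins and NOTCH pathway genes left out, the 10 most different from each other NICD group in each direction, and list members with the largest changes. Names of clones, and symbols held by 2 identifiers, were left out of the first 2 rules. Some named genes and 1 list are not reported here. Up to 8 members a list were planned, and 6 lists are described with more. APOOL and its neighbours and the beta-globin region were chosen after their values were seen. The members and the 76 lists were chosen with earlier results of these data known. GC content was known for 14737 tested genes (97.5%), and the GC trend was removed per library by a lowess curve. Promoters came from RefSeq on GRCh38.p14, matched by symbol, and no GRCh37 coordinate was mixed with them.

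Replicate numbers from the labels were checked for pairing. Deviations from the group means correlated at 0.50, 0.29 and 0.23 for the numbers 1, 2 and 3 of NICD3 and EV. Each was above 0.1, so a fit with the number as a block was run. NICD3 3 correlated more with EV 2 (0.37) than with EV 3, and NICD3 2 at 0.15 with EV 3. The numbers therefore do not mark clear pairs. Alternatives were other scaling, filters and added values, voom weights, only the 6 libraries, GC and length correction, and each library left out. Leaving out a library kept the set of tested genes, chosen after seeing that repeating the filter dropped genes read in EV alone.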

Additional observations from a re-analysis of the deposited data

Results flagged for a closer look

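The libraries labelled NICD3 differed from each of the 3 other NICD groups, by limma with an adjusted p under 0.05 in all 3 contrasts, in the 20 genes given here, each with its smallest log2 difference from another NICD group. Higher in NICD3 were MUC15 (5.54), TRIM38 (2.91), GAGE2A (2.47), CD33 (2.45), ALDH1L1 (2.37), TM4SF1 (2.00), FUZ (1.90), BEX5 (1.83), STRA6 (1.79) and SOHLH2 (1.72). SOHLH2, CD33, GAGE2A and MUC15 were called lower in NICD3 than in EV, so NICD3 lay between EV and the other groups. The call of MUC15 was lost under some settings, and GAGE2A, which has near-identical copies, averaged 0.934 CPM in NICD3. SOHLH2 averaged 61.4 CPM in EV, 4.32 in NICD3 and 0.15, 0.145 and 1.29 in NICD1, NICD2 and NICD4. BEX5 averaged 2.4 CPM in NICD3, 2.11 in EV and 0.633, 0.217 and 0.336 in the other groups. Lower in NICD3 were HBE1 (-1.86), CHM (-1.78), NRP1 (-1.08), EML1 (-0.97), ABCA3 (-0.93), EIF5AL1 (-0.92), HIVEP3 (-0.88), NEURL1 (-0.82), DNTTIP2 (-0.82) and MB21D2 (-0.76). NEURL1, which ubiquitinates NOTCH ligands, averaged 2.64 CPM in NICD3, 2.87 in EV and 7.92, 4.73 and 5.34 in NICD1, NICD2 and NICD4. NEURL1 was not called against EV, but was called lower with the GC trend removed (-0.73), with GC and length removed and with total counted reads. HIVEP3 averaged 4.92 CPM in NICD3 and 9.8, 9.16 and 11.7 in the others, and EML1, a microtubule protein, 2.52 and 5.83, 6.68 and 4.98 CPM.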

How the results depend on the processing

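Genes called higher were 3014 with total counted reads, and those at least 2-fold higher 1069, or 1203 with GC and length trends removed. Genes at least 2-fold lower were 4125 with total counted reads. Genes below each other NICD group were 131 with the GC trend removed and 144 with GC and length removed. With 1 library left out, genes above each other NICD group ranged from 75 (without NICD3 replicate 2) to 159 (without NICD4 replicate 1), with 76 without NICD3 replicate 3, and genes below each from 43 (without NICD3 replicate 3) to 91 (without NICD4 replicate 1), with 44 without NICD3 replicate 2 and 47 without NICD2 replicate 1. The cause was not tested. The fit with a replicate block called 4901 genes higher and 5549 lower, 1961 and 2297 at least 2-fold, and 116 and 69 apart from the other groups. The block changed no call among 53 named genes. Signs turned under some settings for FASN (-0.11 with the GC trend removed), for TRIM38, BEX5, ABCA3 and NEURL1, called with neither sign at those settings, and for the medians of 22 lists with total counted reads. In the 76 lists, total counted reads lowered the higher count by more than 1.5 times in 40 and raised the lower count so in 30. MUC15 lost its call against EV without EV replicate 2 or 3, without NICD3 replicate 1, and with the GC trend removed, and 3 genes not called against EV gained a call: ABCA3 without EV replicate 2 (0.49), TRIM38 as lower with 5 reads added (-0.54), voom weights (-0.60) or only the 6 libraries (-0.57), and NEURL1 as lower with total counted reads (-0.52), the GC trend removed (-0.73) or GC and length removed (-0.585). Depth limits genes of few reads, which are given with read numbers and counting intervals.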

Other observations

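The genes given here from 1 stretch of chromosome X were chosen after their values were seen. That all were called lower in NICD3 than in EV is therefore no result about the stretch. Over all tested genes 36.8% were called lower, and any other genes of the stretch are not given. APOOL (chrX:84258832-84344972 on GRCh37) averaged 1.72 CPM in EV, 0.289 in NICD3 and 2.01, 3.04 and 1.34 in NICD1, NICD2 and NICD4. SATL1 (chrX:84347293-84364054) had no read in NICD3 and 1.31 CPM in EV, ZNF711 (chrX:84498997-84528368), a zinc finger regulator, averaged 6.93 CPM in EV, 0.473 in NICD3 and 2.16, 3.87 and 2.66 in the others, and CHM (chrX:85116185-85302566), the Rab escort protein lost in choroideremia, 9.0, 0.593 and 3.23, 5.37 and 2.22 CPM. APOOL, ZNF711 and CHM were below each other NICD group.

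Another set of genes, chosen in the same way and with the same limit, lies in the beta-globin region of chromosome 11. HBG2 averaged 1.98 CPM in EV and 0.0763 in NICD3, HBE1 44.6 and 1.25 CPM, and the olfactory receptor genes OR51B4 1.94 and 0.0763 CPM and OR51B5 11.5 and 0.221 CPM, all called lower. The annotated spans of HBG2, HBE1 and OR51B5 overlap, so their reads may be shared.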
